A study of Rattus norvegicus with 17 samples.

Results

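The data described here are the 11 of 17 lung RNA libraries that show what bleomycin alone did to the rat lung, chosen by their treatment label. They comprise 6 control libraries from rats given NaCl (numbered 1 to 6) and 5 from rats given bleomycin at 1 mg per kg (numbered 7, 8, 9, 11 and 12). All come from lung parenchyma of RjHan:WI rats, an outbred Wistar stock, and none of the 11 had received the compound of the study. The other 6 libraries came from rats that had the same bleomycin dose together with BI1015550 (2.5 mg per kg), named in the series title as a PDE4B inhibitor. They are used here in choosing the genes to test, in the scaling, to estimate the spread between libraries and, for 4 genes, as context. With the 11 libraries alone, 14739 genes were tested rather than 15000. The labels give no sex, age, route, time after dosing or batch, nor whether each library is from a different animal. The p-values therefore measure the spread between these libraries, which may be technical.

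Bleomycin is a glycopeptide antibiotic that binds iron and, with oxygen, cuts DNA. The lung has little of the hydrolase that inactivates it, and lung injury is its best known toxicity. In rodents, damage to alveolar epithelium and capillary endothelium is followed by an influx of leukocytes, proliferation of fibroblasts and deposition of collagen, which is why the drug is used to model pulmonary fibrosis. The deposited table lists genes by Ensembl rat identifiers and does not pair them with symbols. Pathways and cell types could therefore not be assigned to the genes below, and the tissue label was not checked against marker genes. In whole lung tissue, a lower level can come from fewer cells of a type or from less RNA per cell, and these cannot be told apart.

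Libraries held 15207791 to 16192209 counts with bleomycin and 15919392 to 18462105 in controls. The 10 most abundant genes of a library took 8.10% to 9.35% of its counts with bleomycin and 6.15% to 7.97% in controls, ranges that did not overlap. The part of this difference in the results below was not tested.

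Bleomycin changed many of the measured genes, mostly by little. Of 15000 genes tested, 5738 (38.3%) passed the test (edgeR quasi-likelihood, adjusted p below 0.05), 3032 higher (20.2%) and 2706 lower (18%) than in controls. The share called was 33.5% in a fit of the 11 libraries alone and 23.6% of 23083 genes without the filter on low counts. Among the genes that rose, 1521 changed by less than 1.5-fold, 774 by 1.5 to 2-fold and 537 by 2 to 4-fold. Among those that fell, the same classes held 1256, 827 and 536 genes. With upper quartile scaling, 49.1% of the called genes were higher rather than 52.8%, so that those that fell became the larger part. The median log2 fold change of all tested genes was -0.0072.

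Large changes were mostly increases. At 4-fold or more, 200 genes rose and 87 fell, a ratio of 2.30. At 8-fold or more there were 67 against 15, a ratio of 4.47, and at 16-fold or more 27 against 5, a ratio of 5.40. Over the alternatives run, the ratio at 4-fold lay between 1.86 and 2.73, so that genes that rose were the larger part in each. The ratio at 8-fold fell to 2.17 without the filter on low counts (137 against 63) and to 2.89 with limma voom (55 against 19). At 16-fold it was 2.33 without that filter (56 against 24) and 2.75 with limma voom (22 against 8).

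**Figure D1:**
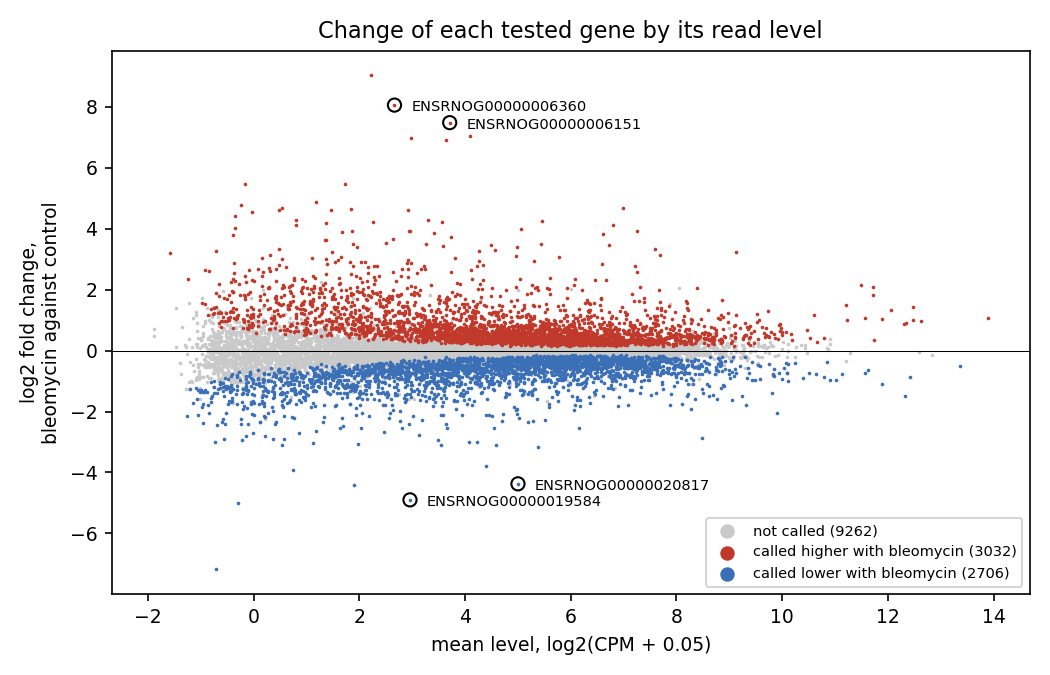
The log2 fold change of bleomycin against control (vertical) is plotted against the mean level of both groups, as log2 of CPM plus 0.05 (horizontal), for each of the 15000 tested genes. Red points are the 3032 genes called higher and blue points the 2706 called lower; circles mark the 4 genes described by identifier, and the points above a log2 fold change of 4 outnumber those below -4.

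Genes called at a larger fold were also more cleanly separated between groups. Over all tested genes, the ranges of CPM values (read counts scaled to a common library size and corrected for composition) did not overlap for 1440 genes that were higher with bleomycin (9.6%) and 1271 that were lower (8.47%). Of the genes that rose by less than 1.5-fold, 438 (28.8%) had ranges that did not overlap. This share was 57.1% from 1.5 to 2-fold, 71.7% from 2 to 4-fold and 96.3% (26 of 27 genes) at 16-fold or more. For genes that fell it went from 32.8% to 46.8% and 67.9%, and the 15 genes that fell by 8-fold or more all had separate ranges. The gap was narrow in most cases. The lowest bleomycin library exceeded the highest control by a median of 1.16-fold, and by 2-fold or more for 139 genes. In the other direction the lowest control exceeded the highest bleomycin library by a median of 1.13-fold, and by 2-fold or more for 51 genes. The same libraries chose and measured these genes, so the shares are descriptions.

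Genes that rose most were counted rarely in controls, which follows in part from how they were measured and chosen. The genes that rose by less than 1.5-fold had a median of 41.9 CPM in controls and 53.5 CPM with bleomycin. Those that rose by 4 to 8-fold had a median of 1.20 CPM in controls and 6.67 CPM with bleomycin, and those that rose by 16-fold or more went from 0.154 to 6.81 CPM. Genes that fell by 4 to 8-fold went from a median of 5.19 to 0.935 CPM. A fold change is a ratio to the control level, so a low control level favours a large rise. A gene near 0.154 CPM in controls passes the filter on low counts only through other libraries where it is higher. Levels here are not corrected for gene length, which the table does not give.

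The level at which a gene was counted also went with the share called. Of the 891 genes with a mean under 1 CPM, 24.7% were called, and their median SE of the log2 fold change was 0.371. From 10 to 100 CPM, 38.3% of 7895 genes were called, with a median SE of 0.116. The 66 genes above 1000 CPM stood apart, with 24 called higher and 23 called lower, 71.2% in all. Their SE (median 0.15) was no smaller than that of genes from 100 to 1000 CPM (0.104), of which 46.2% were called. A rise of 2-fold or more was called for 16.7% of these most abundant genes, against 2.72% of those from 100 to 1000 CPM. A fall of that size was called for 4.55% and 2.19%. The classes use the mean over both groups, so a rise itself moves a gene towards a higher class and a fall towards a lower one. The part of this in the differences between classes was not tested.

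**Figure D2:**
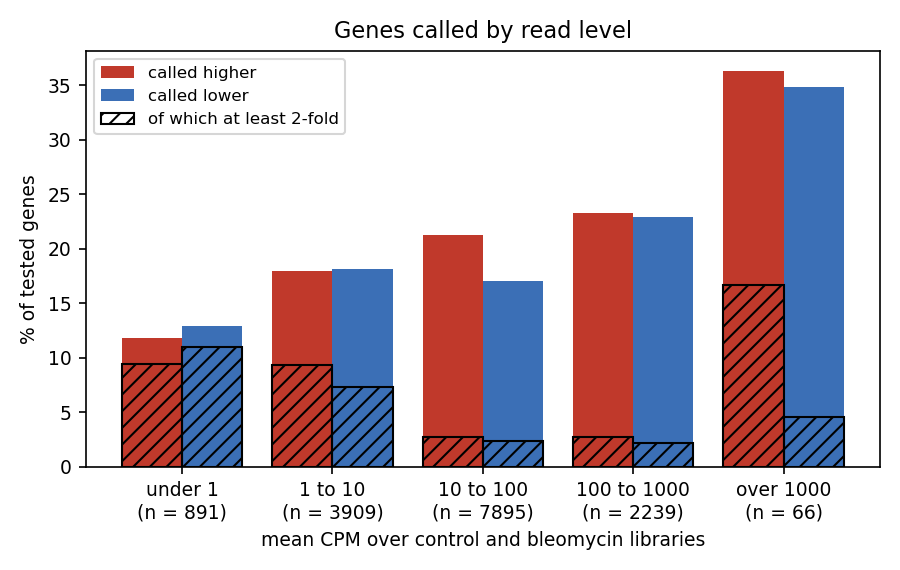
Bars show the percentage of tested genes called higher (red) and lower (blue) with bleomycin, by mean CPM over control and bleomycin libraries, and the hatched part shows calls of at least 2-fold. Calls were most frequent above 1000 CPM, at 36.4% higher and 34.8% lower.

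The called genes accounted for a sizeable shift of the RNA pool. The genes that rose held 22% ± 1.05 of all counts in controls (SD, n = 6) and 35% ± 2.11 with bleomycin (SD, n = 5). The genes that fell held 27.7% ± 0.487 in controls (SD, n = 6) and 17% ± 1.96 with bleomycin (SD, n = 5). The 737 genes that rose by 2-fold or more (4.91% of those tested) made up 4.07% ± 0.118 of control counts and 10.2% ± 1.25 of bleomycin counts. The 623 that fell by 2-fold or more (4.15% of those tested) made up 4.42% ± 0.133 and 1.62% ± 0.434. These shares use the libraries that chose the genes. The gain was concentrated in few genes, as 10 genes carried 31.9% of the CPM added by genes that rose and 50 genes carried 50% of it. The loss was more spread out, with 22.4% in 10 genes and 50% in 85.

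More genes crossed a fixed level in CPM than moved between uncounted and counted. A gene below 1 CPM can still have reads, so these levels do not separate uncounted from counted genes. A total of 51 genes were below 1 CPM in each control library and at or above it in each bleomycin library, and 28 made the opposite move. The line of 10 CPM was crossed upwards by 66 genes and downwards by 52, and that of 100 CPM by 42 and 28. Shares of the genes that started on each side of a line are not given. Among all genes with a count, 3 had no count in any control and at least 1 in each bleomycin library, and their summed bleomycin counts reached at most 28. In the other direction, 11 genes were counted in each control and in no bleomycin library, with at most 116 counts summed over the controls. Only 1 of these 11 genes passed the filter on low counts, and it was called lower. None of the 3 genes in the first set passed it.

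The 4 genes described by identifier had the largest fold changes among genes with a mean of at least 5 CPM over the 11 libraries and no overlap between the group ranges. They were picked for these changes, so their values are a description. Both genes that rose reached 5 CPM through bleomycin library 7. Without it, the means over the other 10 libraries were 0.483 CPM for ENSRNOG00000006360 and 2.41 CPM for ENSRNOG00000006151. Neither of these passed the filter on low counts in a fit of the 11 libraries alone.

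The gene ENSRNOG00000006360 was barely counted in controls, at 0, 0.0523, 0, 0.124, 0.0596 and 0 CPM in libraries 1 to 6. In bleomycin libraries 7, 8, 9, 11 and 12 it stood at 58, 0.777, 0.267, 0.315 and 3.24 CPM. Library 7 was far above the rest of its group, while libraries 9 and 11 were only just above the highest control. The log2 fold change was 8.06 (SE 1.71, edgeR adjusted p = 0.00149), from 4 counts over the controls and 958 over the bleomycin libraries, of which library 7 gave 887. Without library 7 it was 4.63 (edgeR adjusted p = 0.0115), and with limma voom 4.004 (adjusted p = 0.00994).

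The gene ENSRNOG00000006151 was at 0.0608, 0.157, 0, 0.249, 0.298 and 0.0596 CPM in controls 1 to 6. Libraries 7, 8, 9, 11 and 12 had 106, 2.72, 0.467, 1.14 and 19 CPM. The order of the bleomycin libraries was thus 7, 12, 8, 11, 9, as for ENSRNOG00000006360. Libraries 11 and 9 gave only 5 and 4 counts of ENSRNOG00000006360, so their order there is uncertain. The log2 fold change of ENSRNOG00000006151 was 7.49 (SE 1.60, edgeR adjusted p = 0.00157). Without library 7 the log2 fold change was 5.33 (edgeR adjusted p = 0.00727). With limma voom it was 4.15 and no longer passed the threshold (adjusted p = 0.0803).

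The 2 genes that fell did so in each bleomycin library. ENSRNOG00000019584 was at 36.6, 13.5, 12, 9.63, 12.2 and 5.6 CPM in controls 1 to 6, and at 0.262, 0.777, 0.4, 0.568 and 0.453 CPM in libraries 7, 8, 9, 11 and 12. The lowest control was 7.21-fold above the highest bleomycin library, and control 1 was the highest by far. The log2 fold change was -4.90 (SE 0.671, edgeR adjusted p = 4.03e-05), and -4.40 without control 1 (edgeR adjusted p = 4.97e-05).

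ENSRNOG00000020817 was well counted in controls, at 48.4, 73, 45.9, 65.1, 89.1 and 44.4 CPM. With bleomycin it was at 0.654, 4.34, 2.27, 4.73 and 2.65 CPM in libraries 7, 8, 9, 11 and 12. The lowest control was 9.38-fold above the highest bleomycin library, and library 7 was the lowest. The log2 fold change was -4.37 (SE 0.465, edgeR adjusted p = 4.54e-06), and leaving out any 1 library kept it between -4.62 and -4.12.

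In the libraries given bleomycin and BI1015550, ENSRNOG00000020817 ranged from 8.59 to 45.9 CPM with a median of 17.1 CPM, above the bleomycin range. Only library 17 (45.9 CPM) reached the range of the controls, whose lowest value was 44.4 CPM. The rest of the group stood at 8.59 to 19.2 CPM, below each control. ENSRNOG00000019584 ranged from 0.14 to 3.92 CPM there, below the controls and overlapping the bleomycin range. Its median there was 1.64 CPM, against 0.453 CPM with bleomycin alone. The 2 genes that rose ranged from 0.0626 to 2.87 CPM (ENSRNOG00000006360) and from 0.125 to 19.9 CPM (ENSRNOG00000006151), overlapping both other groups. All 4 genes were picked for extreme values in the bleomycin libraries, so another group can lie nearer the controls through that choice alone. An effect of the compound on these genes was not tested.

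**Figure D3:**
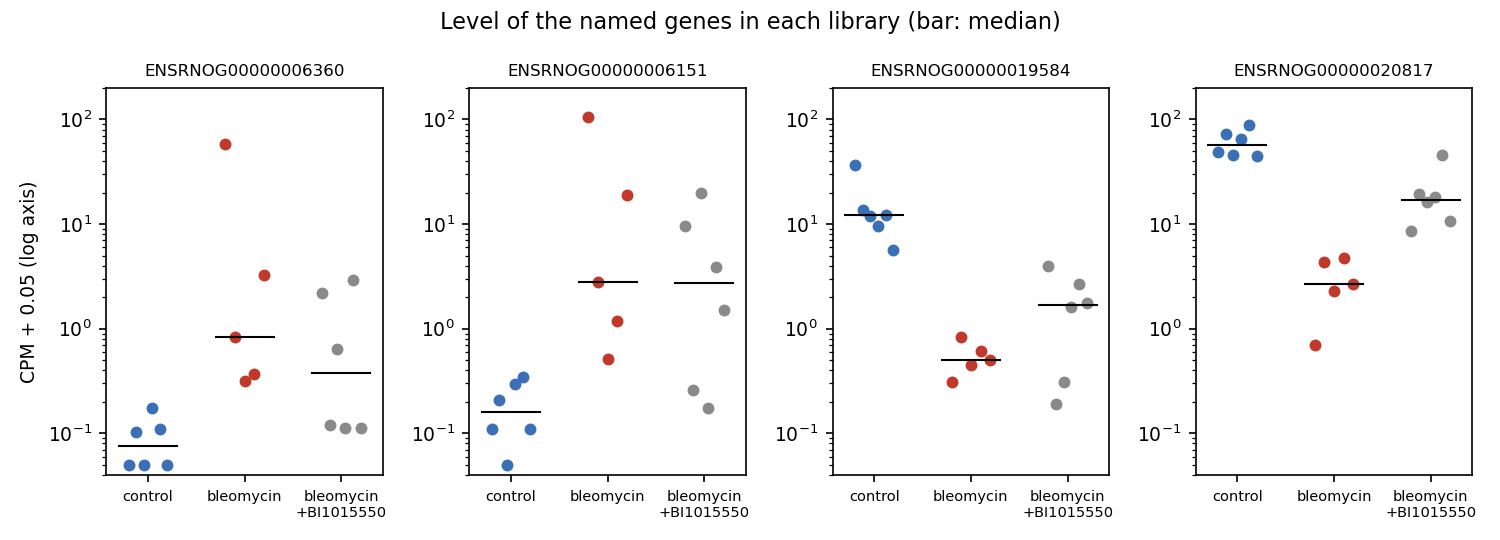
Each point is the level of 1 gene in 1 library, as CPM plus 0.05 on a log axis, for control (blue), bleomycin (red) and bleomycin with BI1015550 (grey), with bars at the group medians. Bleomycin library 7 is the highest point for both genes that rose, at 58 and 106 CPM, while both genes that fell lie below 5 CPM in each bleomycin library.

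How alike the 5 bleomycin libraries were was measured on genes that each library had not helped to choose. For each library, genes were called from the other 16 libraries, and the median log2 CPM of the library minus the control mean was taken over them. The controls behind the calls also formed the control mean, so the shifts of bleomycin libraries and their shares beyond the controls can be overstated. The scaling of the CPM values included the library left out. On genes called higher, bleomycin libraries 7, 8, 9, 11 and 12 lay 0.70, 0.38, 0.52, 0.53 and 0.60 above controls. On genes called lower they lay at -0.79, -0.38, -0.57, -0.51 and -0.59. Library 7 thus had the largest shift in both directions and library 8 the smallest, and the shift of library 7 was 1.85 times that of library 8 on genes called higher and 2.07 times on genes called lower. Between 92.3% and 98.3% of the genes called higher were above the control mean in the library left out, and 63.8% to 82.1% were above each control.

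For genes called at 4-fold or more without the library, the shift was 2.65, 1.79, 2.25, 1.87 and 2.70 in libraries 7, 8, 9, 11 and 12 for genes that rose. It was -2.70, -1.65, -2.13, -1.91 and -2.44 for genes that fell. Libraries 7 and 12 were the most shifted and libraries 8 and 11 the least in both directions. At least 96.4% of these genes lay on the same side of the control mean as in the other libraries, in each bleomycin library.

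The controls were not uniform on the same measure. Control 1 lay 0.22 above the other controls on genes called higher without it and at -0.22 on genes called lower, so it was shifted in the direction of bleomycin on both. On genes called higher without it, 52.3% stood above each of the other 5 controls, against 10.1% to 18% for the other control libraries. Control 4 was shifted in the same directions by less (0.12 and -0.08), and controls 2, 3, 5 and 6 lay between -0.09 and 0.03. On genes called at 4-fold or more, control 1 lay at 0.04 and -0.18, and control 5 lay highest at 0.45 on those that rose. On each of these measures every bleomycin library lay beyond every control. Leaving out control 1 raised the genes called to 3364 higher and 2995 lower, and those with separate ranges to 2036 and 1595. Leaving out any library makes it easier for ranges to separate.

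**Figure D4:**
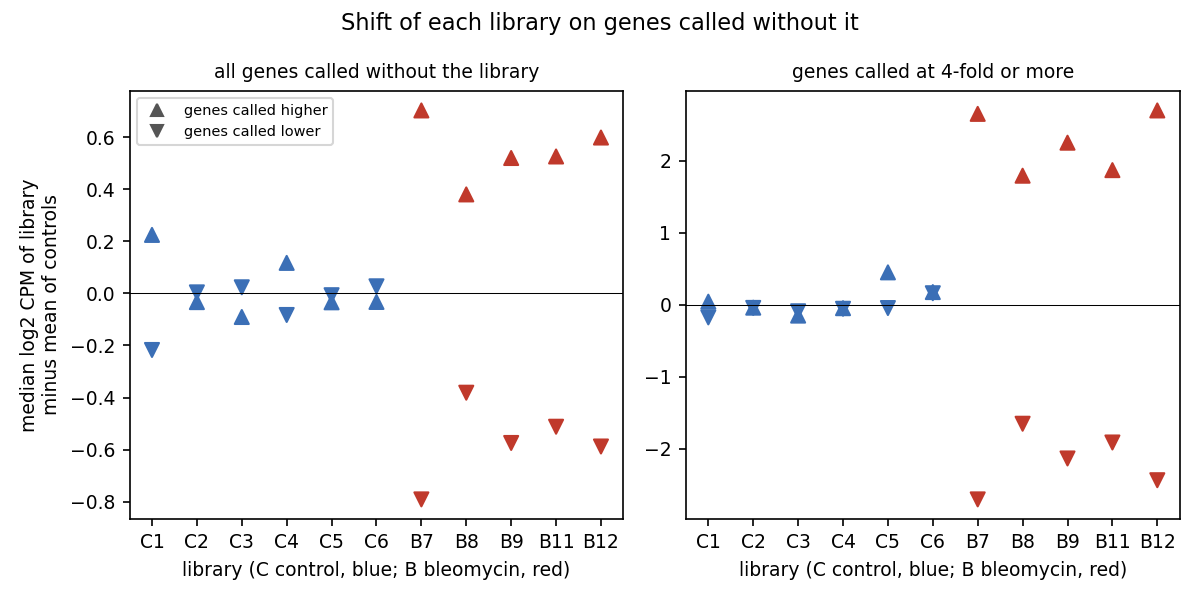
Each symbol is 1 library (C control, blue; B bleomycin, red), and the vertical axis gives its median log2 CPM minus the control mean over genes called higher (upward triangles) or lower (downward triangles) without that library. The left panel uses all called genes and the right panel those called at 4-fold or more; B7 and B12 lie farthest from 0 among bleomycin libraries and C1 is the control nearest to them on the left.

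Distances between libraries were taken over all 15000 tested genes. The root mean square difference of log2 CPM had a median of 0.479 between controls (0.377 to 0.635), 0.583 between bleomycin libraries (0.463 to 0.727) and 0.776 between the groups (0.619 to 0.974). Among the 11 libraries, each had its nearest neighbour in its own group. Library 7 had the largest mean distance to controls (0.95) and library 8 the smallest (0.677). Control 1 had the largest mean distance to its own group (0.557) and lay nearest to control 4 (0.4215). The shortest distance between the groups joined control 1 and bleomycin library 11 (0.619).

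**Figure D5:**
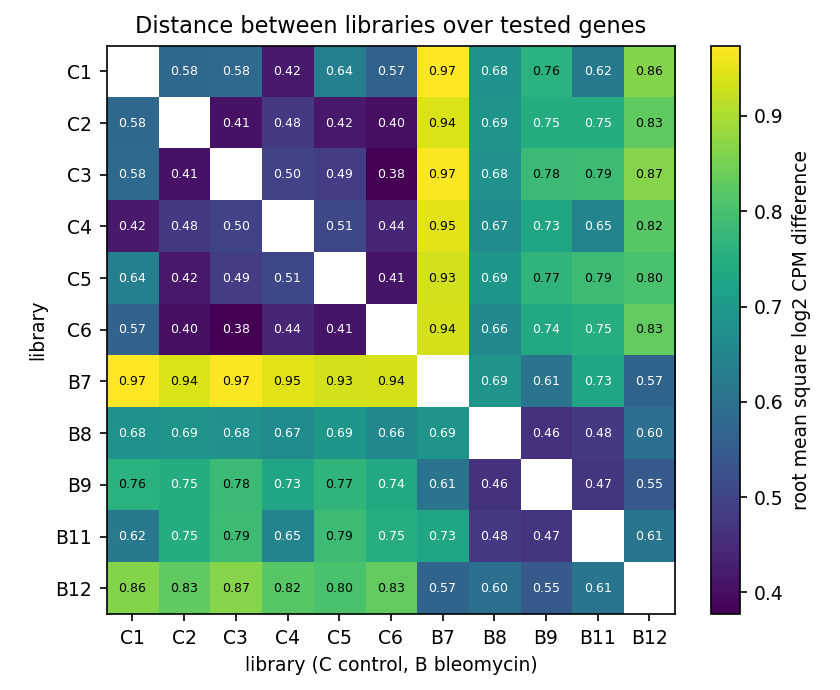
Each cell gives the root mean square difference of log2 CPM between a pair of libraries (C control, B bleomycin) over the tested genes. The median distance is 0.776 between groups, 0.479 within controls and 0.583 within bleomycin. The ranges overlap, as distances between groups start at 0.619 and those within bleomycin reach 0.727. B7 is the library farthest from the controls.

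Spread within the bleomycin group was slightly larger than within controls, but not without library 7. The median SD of log2 CPM per gene was 0.247 with bleomycin (n = 5) and 0.217 in controls (n = 6), and 57.5% of genes had the larger SD with bleomycin. Without library 7 the median was 0.216 and the share 48.9%, and without library 11 they were 0.22 and 52%. Without control 1 the control median was 0.182 and 68.1% of genes had the larger SD with bleomycin. Among the genes called, the share was 56.8% for those that rose and 63.4% for those that fell.

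Single libraries carried some of the genes that rose. For 44 of the 3032 genes, 1 bleomycin library held over 50% of the CPM summed over the group, and this was library 7 for 32, library 12 for 10 and library 9 for 2. These 44 genes had a median log2 fold change of 2.87, so they weighed more among the large increases. They included 17 of the 133 genes that rose by 4 to 8-fold, 10 of the 40 from 8 to 16-fold and 8 of the 27 at 16-fold or more. Of the 200 genes that rose by 4-fold or more, library 7 was the highest for 95 and library 12 for 50, while library 8 was the lowest for 84 and library 11 for 72. Of the 87 genes that fell by 4-fold or more, library 7 was the lowest for 32 and library 12 for 24.

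Most calls did not rest on 1 library. Of the genes called higher, 2234 (73.7%) were called in each of the 11 fits that left out 1 library, and of those called lower 1908 (70.5%). Removing library 7 lost the most calls, 1019, with 240 gained. Removing control 1 lost the fewest, 298, with 919 gained. Genes called in each of those fits and under each of 6 other settings of scaling, filter, test or libraries numbered 2190 higher and 1876 lower. Their median change was 0.67 and 0.72 on the log2 scale, against 0.38 and 0.44 for the remaining calls.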

How the data were processed

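RNA from rat lung parenchyma was extracted with a column kit and made into TruSeq mRNA libraries, per the labels' protocols. The authors deposited whole-number read counts per gene for 17 libraries. The submitters' processing notes list the tools STAR (2.5.2 and 2.5.2b), RSEM 1.3.0, featureCounts 1.5.1, FastQC 0.11.5 and bcl2fastq 2.20.0.422, and the builds Rnor_6.0, hg38 and GRCh38, with no role. The tool behind the counts is not given in the sources used here, nor are annotation, strand setting and filters. Reads of overlapping genes or near-identical copies may have been shared or dropped.

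Of 32753 identifiers, 0 matched the RefSeq gene table (assembly GRCr8), so the 38 gene lists and the marker lists drawn up for symbols were not used, and no sequence is shown. Genes passing filterByExpr (15000 of 23083 with a count, 99.927% of counts) were scaled by TMM (trimmed means of log ratios) and tested with edgeR 4.0.16 in R 4.3.3 (quasi-likelihood F test, 3 groups, 17 libraries, Benjamini-Hochberg adjustment over all tested genes). The SE is the log2 fold change divided by the square root of F. Log2 CPM values use a prior count of 2. The fit was tested on simulated data. The rule for named genes required separate group ranges, an adjusted p below 0.05 and at least 5 CPM on average, and took the 2 largest changes in each direction. Alternatives were other scalings, no filter, DESeq2 1.42.0, limma 3.58.1 (voom with quality weights), the 11 libraries alone and each of these left out. A fit with 1 surrogate variable (sva 3.50.0) and a fit without control 1 and bleomycin 7 were added after seeing the data. Rules and lists were chosen with earlier results of these data known.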

Additional observations from a re-analysis of the deposited data

Results flagged for a closer look

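Dixon's test was applied to 30 sets of values, each 1 measure within 1 group, and 3 sets had an outlying library. For normally distributed values chance gives about 1 in 20. All 3 sets are levels of genes picked for extreme changes in these libraries. In bleomycin library 7, ENSRNOG00000006360 was counted at 58 CPM, against 0.267 to 3.24 CPM in the rest of the group, and ENSRNOG00000006151 at 106 CPM, against 0.467 to 19 CPM. In control 1, ENSRNOG00000019584 was counted at 36.6 CPM, against 5.6 to 13.5 CPM in the rest of the controls.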

How the results depend on the processing

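Of the results recomputed under each alternative, no gene, median or held-out shift changed sign, but 2 comparisons turned. Genes called lower outnumbered those called higher with upper quartile scaling (49.1% of calls higher, 52.8% as reported), and the SD was larger with bleomycin for 57.5% of genes but for 48.9% without bleomycin 7. The numbers of genes called higher, called lower, and called at 2-fold or more stayed within 1.5 times their reported values in each alternative. Leaving out 1 library gave 2572 to 3364 genes higher, 2297 to 2995 lower, 668 to 807 at 2-fold or more higher and 548 to 717 lower, and 1447 to 2036 and 1246 to 1595 with separate ranges. Other alternatives gave 2642 (the 11 libraries alone) to 3617 genes higher (1 surrogate variable) and 2297 (the 11 libraries alone) to 3401 lower (limma voom). The 1440 genes higher with separate ranges include 1432 that were called, and this number rose to 2176 without control 1 and bleomycin 7. It was 2036 without control 1 alone and 1516 without bleomycin 7 alone. Without any other control it was 1447 to 1515, and without bleomycin 8, 9, 11 or 12 it was 1525 to 1751. Ranges over fewer libraries separate more easily. The 44 genes carried by 1 library became 89 without the filter on low counts and 83 to 105 without bleomycin library 8, 9, 11 or 12, with 4 libraries left in the group. ENSRNOG00000006151 missed the threshold with limma voom (4.15, adjusted p = 0.0803; the cause was not tested), and DESeq2 gave no adjusted p for ENSRNOG00000006360. Neither gene was tested with the 11 libraries alone, where both fell under the filter on low counts. No paired analysis was possible because no replicate number occurs in both groups. Genes under 1 CPM, with a median SE of 0.371, allow only large changes to be seen.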

Other observations

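Some of the spread between libraries ran across the groups. After subtracting the group mean of each gene, the log2 CPM of control 1 and bleomycin library 11 had a Pearson correlation of 0.451 over 15000 genes, and control 4 and library 11 one of 0.328. These were the highest of 30 pairs of a control and a bleomycin library, which ranged down to -0.34. Genes are not independent replicates, and the pairs share libraries. A surrogate variable estimated beside the groups was highest in control 1 (0.615), bleomycin library 11 (0.492) and control 4 (0.312), and lay between -0.259 and 0.0726 in the other 14 libraries. With this variable in the edgeR fit, 3617 genes were called higher and 3312 lower with bleomycin. The variable itself passed the test for 4552 genes. It was estimated from the same values, so neither this number nor the numbers called with it are an independent finding. The labels name nothing that these 3 libraries share.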
